A study of Mus musculus with 85 samples.

Results

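The lipid-associated macrophage genes described here are 8 genes, Trem2, Gpnmb, Spp1, Cd9, Cd63, Lpl, Fabp5 and Tyrobp, taken by symbol from the 23608 genes of the expression tables, and all 8 were present. Poly(A) RNA was sequenced from liver and marrow macrophages of male mice of 3 inbred strains (C57BL/6J, BALB/cJ, A/J) and of CB6F1/J, the first-generation cross between the BALB/cJ and the C57BL/6J strain, in 85 libraries, 69 from the inbred strains and 16 from the hybrid. Kupffer cells, which are the macrophages that reside in the sinusoids, were sorted as CD146-, CD45+, F4/80 high and CD11b intermediate cells. They came from untreated mice of the 3 strains (2 libraries each), from mice kept for 30 weeks on the AMLN diet, which is rich in fat, fructose and cholesterol and produces steatohepatitis (4 libraries from C57BL/6J, 4 from A/J and 3 from BALB/cJ), and, for BALB/cJ as well as C57BL/6J, from mice 2 h after 0.1 mg/kg LPS by intraperitoneal injection (2 each). Kupffer cells of BALB/cJ or C57BL/6J marrow origin were also taken from NSG hosts (3 each), immunodeficient mice conditioned with busulfan and grafted with lineage-negative marrow, in which the graft cells were sorted by MHC haplotype. Bone marrow-derived macrophages (BMDMs) grown in M-CSF-containing medium received PBS or 100 ng/ml KLA (Kdo2-lipid A, the TLR4-binding part of LPS) for 2 h (2 each per strain). Liver sinusoidal endothelial cells (LSECs), stellate cells and hepatocytes of untreated mice completed the inbred groups (2 to 4 each). The hybrid libraries were Kupffer cells from untreated (4), LPS-treated (5) and NSG-hosted (3) cells and BMDMs with PBS or KLA (2 each). The labels give neither diet nor age for the untreated mice. An overnight fast is named for the mice of the LPS experiment, and whether the untreated mice were fasted is not labelled. The methods of the study name standard chow and young adult mice in general, and a defined control diet beside the AMLN diet. A figure legend of the study names control-diet Kupffer cells, with 2 per group. Which of these the untreated mice were fed is not stated, and they may have been younger than mice kept for 30 weeks on the AMLN diet. Sequencing runs are not given. The effects of diet, age and any difference in run cannot be told apart in the AMLN comparison. The methods also name C57BL/6 mice of a colony kept in the laboratory for the steatohepatitis experiments, whereas the labels of the AMLN libraries give C57BL/6J, so the source of the mice may differ as well between the C57BL/6J groups.

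Lipid-associated macrophages are macrophages that gather around fat-laden cells in adipose tissue, atherosclerotic lesions and the steatotic liver. TREM2 is a surface receptor for lipids, lipoproteins and cell debris, which signals through the ITAM-bearing adaptor TYROBP (DAP12). Around this receptor the programme holds secreted products, osteopontin (Spp1) and lipoprotein lipase (Lpl), the lysosome-associated glycoprotein GPNMB, the tetraspanins CD9 and CD63, and the intracellular fatty acid carrier FABP5. In the liver, cells with this programme are known both as recruited macrophages that settle in the Kupffer cell niche and as part of the resident population, and a bulk library does not separate them: fewer cells of a type and less RNA per cell cannot be told apart here.

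Each gene lies on its own locus in the mm10 reference (RefSeq GRCm38.p6). Trem2 spans chr17:48346401-48352276, Gpnmb chr6:49036518-49058182, Spp1 chr5:104435111-104441053, Cd9 chr6:125460266-125494760, Cd63 chr10:128896231-128912822, Lpl chr8:68880555-68906932, Fabp5 chr3:10012585-10016610 and Tyrobp chr7:30413782-30417582. Promoter sequences from RefSeq were matched for 5 of the 8 members. They are shown because these members moved together on the diet in C57BL/6J Kupffer cells, and each runs 250 bases before the start and 20 bases after it on the strand of the gene, from chr17:48346151-48346420 for Trem2, chr6:49036268-49036537 for Gpnmb, chr5:104434861-104435130 for Spp1, chr6:125494741-125495010 (minus strand) for Cd9 and chr10:128909095-128909364 for Cd63, whose start there lies within the annotated span of the gene. A second start of Spp1 (window chr5:104435942-104436211) held none of the motifs and is not printed. Capitals mark the matches to 4 motifs searched on both strands, the E-box CACGTG, the MITF/TFE core CATGTG, the AP-1 motif TGACTCA and the PU.1 core GAGGAAG.
Trem2: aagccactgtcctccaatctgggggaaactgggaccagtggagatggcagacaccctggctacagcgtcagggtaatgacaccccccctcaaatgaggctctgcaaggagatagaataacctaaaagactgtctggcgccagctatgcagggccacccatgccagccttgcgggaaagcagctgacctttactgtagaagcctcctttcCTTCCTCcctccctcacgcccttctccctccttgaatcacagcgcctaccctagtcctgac
Gpnmb: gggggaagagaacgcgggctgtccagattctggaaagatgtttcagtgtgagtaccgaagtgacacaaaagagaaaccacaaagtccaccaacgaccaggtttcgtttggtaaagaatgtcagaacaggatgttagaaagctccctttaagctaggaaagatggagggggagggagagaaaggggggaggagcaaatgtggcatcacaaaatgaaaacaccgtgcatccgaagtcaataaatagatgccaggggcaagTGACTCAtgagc
Spp1: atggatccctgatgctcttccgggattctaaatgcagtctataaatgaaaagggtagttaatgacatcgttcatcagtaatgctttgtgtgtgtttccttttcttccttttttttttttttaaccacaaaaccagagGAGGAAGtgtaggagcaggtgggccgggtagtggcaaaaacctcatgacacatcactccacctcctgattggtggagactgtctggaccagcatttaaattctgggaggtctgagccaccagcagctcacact
Cd9: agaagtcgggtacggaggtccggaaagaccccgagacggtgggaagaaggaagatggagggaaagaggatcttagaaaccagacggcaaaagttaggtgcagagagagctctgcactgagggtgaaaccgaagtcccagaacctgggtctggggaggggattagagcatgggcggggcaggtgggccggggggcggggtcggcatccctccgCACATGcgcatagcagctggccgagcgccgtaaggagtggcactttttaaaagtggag
Cd63: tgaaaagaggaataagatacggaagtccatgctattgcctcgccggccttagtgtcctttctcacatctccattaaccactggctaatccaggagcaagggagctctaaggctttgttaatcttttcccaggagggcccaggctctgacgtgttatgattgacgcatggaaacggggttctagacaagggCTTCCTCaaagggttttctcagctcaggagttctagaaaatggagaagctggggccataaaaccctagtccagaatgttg

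The PU.1 core began 41 bases before the start of Trem2 and 60 bases before that of Cd63, in both cases as its reverse complement, and 113 bases before that of Spp1 on the strand of the gene. PU.1 is the lineage-determining factor of macrophages, and its core stood in 13.6% of the 32851 windows of 300 bases (250 before and 50 after a start) searched. The AP-1 motif began at base 9 after the start of Gpnmb and stood in 5.20% of all windows. The MITF/TFE core began 38 bases before the start of Cd9 as its reverse complement and stood in 14.2% of all windows. The E-box was in 7.15% of all windows and in none of the 5 shown. These are matches of letters and describe no binding.

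In Kupffer cells of untreated mice the 8 genes spanned a wide range of levels in TPM, a unit that scales reads to transcript length and library total. Tyrobp was the highest, with 1385 and 966 TPM in A/J, 1486 and 1427 TPM in BALB/cJ and 1314 and 1412 TPM in C57BL/6J, and Lpl followed at 224 to 385 TPM over the 6 libraries. Gpnmb, Spp1 and Fabp5 were close to the detection limit, at 0.14 to 2.47 TPM in every untreated library, and Cd9 stood at 3.21 to 5.72 TPM. The adaptor and the lipase were abundant in untreated mice, whereas Gpnmb, Spp1 and Fabp5 were nearly absent.

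Trem2 and Cd63 were the members that varied between untreated strains. Trem2 was at 15.8 and 17.8 TPM in A/J, 51.7 and 63.1 TPM in BALB/cJ and 21.9 and 27.8 TPM in C57BL/6J. Cd63 was at 4.2 and 6.64 TPM in A/J, 32.8 and 32.6 TPM in BALB/cJ and 1.06 and 1.74 TPM in C57BL/6J. For both genes the BALB/cJ libraries lay above all others without overlap. A member was called where edgeR's quasi-likelihood test gave an adjusted p under 0.05 (Benjamini-Hochberg over all genes tested) and the fitted log2 difference exceeded 1 in size, among genes with a mean above 8 TPM in at least 1 group compared. By this rule the A/J minus BALB/cJ difference was called for 0 of 4 members tested, where 1.64% of all genes tested were called, that of A/J minus C57BL/6J for 0 of 3 (3.09% of all genes) and that of BALB/cJ minus C57BL/6J for 1 of 4 (3.65% of all genes). The call was Cd63, 4.60 ± 1.02 higher in BALB/cJ (log2 ± SE, adjusted p = 0.0154, edgeR), and it was lost when any of the 4 libraries was left out (adjusted p = 0.0582 to 0.19). In both comparisons with BALB/cJ, Cd63 passed the TPM limit through BALB/cJ alone and so could only be called higher there. For BALB/cJ minus C57BL/6J, 0 of the 3 members over the limit in both groups were called. The Trem2 differences were -1.84 ± 0.54 for A/J minus BALB/cJ (adjusted p = 0.114) and 1.26 ± 0.53 in the comparison of BALB/cJ with C57BL/6J (adjusted p = 0.225, edgeR). These adjusted p-values rest on the spread shared with the AMLN libraries: fitted with the untreated libraries of each comparison alone, both Trem2 differences were called (adjusted p = 7.07e-05 and 0.000472, edgeR), as was Cd63 between A/J and BALB/cJ (adjusted p = 6.39e-05). The study itself picked Trem2 as an example of a strain difference in these libraries, so the gene is no independent choice here.

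On the AMLN diet the receptor Trem2 reached 674, 556, 504 and 686 TPM in the 4 C57BL/6J libraries, 120, 103 and 94.4 TPM in BALB/cJ and 121, 31.3, 32.4 and 58.2 TPM in A/J. Its C57BL/6J range lay far above both other strains, whose ranges overlapped. Relative to untreated Kupffer cells of the same strain, Trem2 was 4.81 ± 0.58 higher on the log2 scale in C57BL/6J (adjusted p = 8.11e-05), 2.04 ± 0.50 higher in A/J (adjusted p = 0.0269) and differed by 0.76 ± 0.48 in BALB/cJ (adjusted p = 0.427, edgeR). Its adaptor Tyrobp had the smallest difference of the 8 genes in C57BL/6J. Tyrobp was at 1862, 2101, 1894 and 1921 TPM in C57BL/6J on the diet, above the 2 untreated C57BL/6J libraries, with a log2 difference of 0.72 ± 0.20 (adjusted p = 0.0149, edgeR) that stayed under the fold limit. In A/J and BALB/cJ the Tyrobp differences were -0.02 ± 0.19 and -0.33 ± 0.20 (adjusted p = 0.961 and 0.403).

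**Figure D1:**
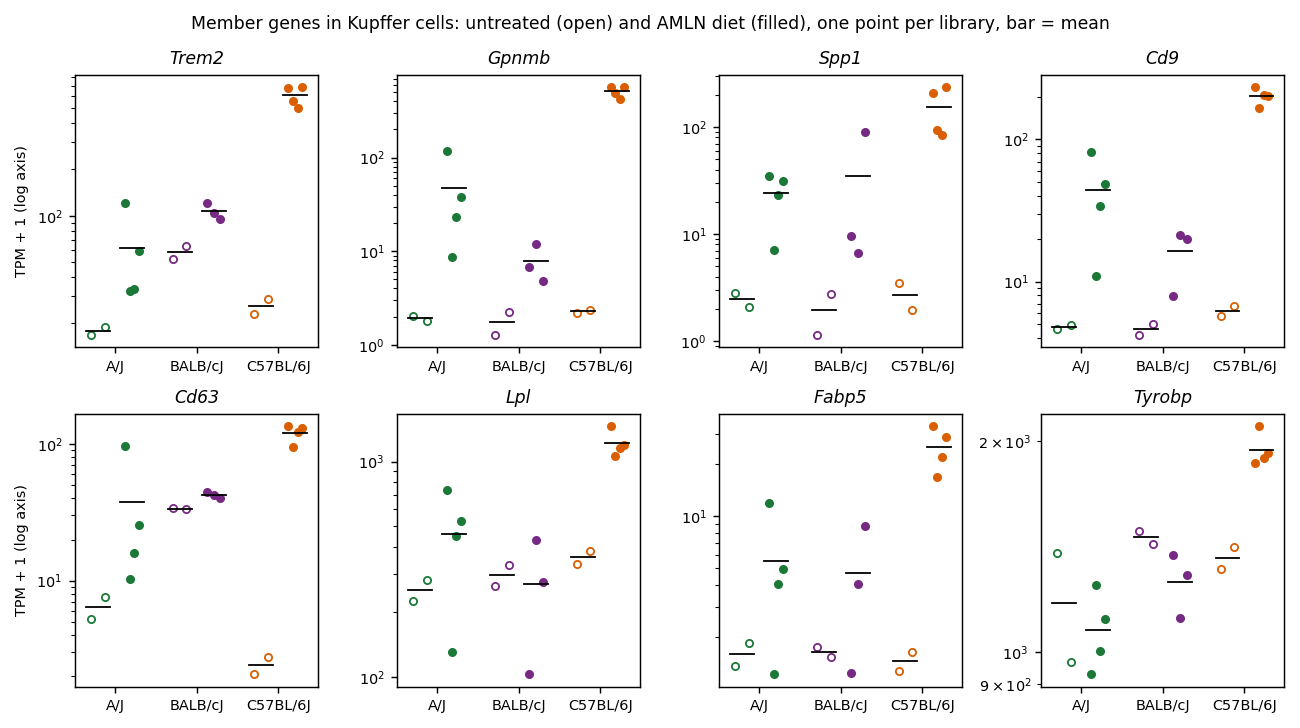
Levels of the 8 genes in Kupffer cells of untreated mice (open circles) and mice on the AMLN diet (filled circles) of the 3 strains, as TPM plus 1 on a log axis, with 1 point per library and a bar at the group mean. In 6 of the 8 panels every C57BL/6J library on the diet lies above every A/J and BALB/cJ library on the diet.

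Among the secreted members, Lpl, which releases fatty acids from triglyceride-rich lipoproteins, was at 1459, 1064, 1154 and 1188 TPM in C57BL/6J on the diet, at 102, 429 and 275 TPM in BALB/cJ and at 736, 129, 453 and 531 TPM in A/J. The C57BL/6J libraries were again the highest, and the other strains overlapped their untreated libraries. Its log2 difference from untreated was 1.96 ± 0.57 in C57BL/6J (adjusted p = 0.0204), 1.02 ± 0.54 in A/J (adjusted p = 0.276) and -0.30 ± 0.54 in BALB/cJ (adjusted p = 0.832, edgeR). Spp1, an extracellular matrix protein that binds CD44 and integrins, was at 206, 92.2, 83.4 and 236 TPM in C57BL/6J, at 33.8, 6.11, 22.2 and 30.4 TPM in A/J and at 8.59, 5.62 and 88.3 TPM in BALB/cJ. The replicate 3 library of BALB/cJ was within the C57BL/6J range and far from the other BALB/cJ libraries. A figure legend of the study gives 2 BALB/cJ samples on the diet, whereas 3 libraries are labelled and used here. Spp1 was higher on the diet by 6.67 ± 1.36 in C57BL/6J (adjusted p = 0.00296) and by 5.12 ± 1.36 in BALB/cJ (adjusted p = 0.0323), and the A/J difference was 4.08 ± 1.24 (adjusted p = 0.0697, edgeR). The BALB/cJ value rested on 22 reads in the untreated libraries and on replicate 3: without it the log2 difference was 2.88 (adjusted p = 0.118), and without untreated replicate 1 or 2 it was 4.10 or 7.64 (adjusted p = 0.327 and 0.0993, edgeR).

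The lysosomal glycoprotein Gpnmb had the highest fold of any member. It was at 568, 494, 427 and 565 TPM in C57BL/6J on the diet against 1.20 and 1.35 TPM without it, a log2 difference of 8.86 ± 1.22 (adjusted p = 0.000211, edgeR). A/J ranged from 7.75 to 118 TPM (118, 7.75, 22.5 and 37.0), 5.85 ± 1.09 above untreated (adjusted p = 0.00696), and BALB/cJ was at 5.79, 11.01 and 3.796 TPM, under the limit for testing against untreated. All diet libraries were above all untreated ones in every strain, and the C57BL/6J range lay clear of the other strains. Cd9, a tetraspanin of the plasma membrane, stood at 233, 165, 204 and 201 TPM in C57BL/6J, at 81.1, 10.0, 32.9 and 47.6 TPM in A/J and at 6.88, 20.4 and 18.9 TPM in BALB/cJ, where no untreated library exceeded 5.72 TPM. The log2 differences from untreated were 5.47 ± 0.76 in C57BL/6J (adjusted p = 0.000229), 3.66 ± 0.71 in A/J (adjusted p = 0.00835) and 1.94 ± 0.68 in BALB/cJ (adjusted p = 0.114, edgeR).

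Cd63, a tetraspanin of late endosomes and lysosomes, changed the order of the strains. In C57BL/6J, the strain with the lowest untreated level, it was at 134, 94.9, 121 and 131 TPM on the diet, 6.64 ± 1.03 above untreated (adjusted p = 0.000467, edgeR). In A/J it was at 96.6, 9.30, 14.9 and 24.7 TPM, 2.99 ± 0.81 above untreated (adjusted p = 0.0424). In BALB/cJ, the strain with the highest untreated level, it was at 43.4, 41.2 and 39.3 TPM, and the difference was 0.22 ± 0.71 (adjusted p = 0.909, edgeR). The first A/J library overlapped the C57BL/6J range and the other 3 fell below BALB/cJ. Fabp5 was at 32.2, 15.9, 21.0 and 27.7 TPM in C57BL/6J on the diet, at 10.9, 0.22, 3.08 and 3.97 TPM in A/J and at 0.24, 3.07 and 7.79 TPM in BALB/cJ. Its C57BL/6J log2 difference of 5.89 ± 1.48 (adjusted p = 0.00994, edgeR) was measured against 2 and 4 reads in the untreated libraries, a depth-scaled read ratio of 60.4 with a 95% interval of 27.7 to 164.7 from counting error alone. Cd9, Cd63 and Fabp5 have near-identical copies elsewhere in the genome, and how reads were split between the copies is not given, so their levels are uncertain to that extent.

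A gene was tested where its mean passed 8 TPM in at least 1 of the groups compared. In C57BL/6J 3 members passed in both groups, and of these Trem2 and Lpl were called higher and Tyrobp was not. The other 5, Gpnmb, Spp1, Cd9, Cd63 and Fabp5, passed through the diet group alone and so could only be called higher, which they were. In A/J 1 of 3 members over the limit in both groups was called (Trem2) and 3 of the 4 that passed through the diet group alone, and in BALB/cJ 0 of 4 and 1 of 2. Of all genes tested, 6.73% were called higher in C57BL/6J. The share was 2.66% for A/J and 4.78% for BALB/cJ. Since most member calls come from genes that the limit admitted through the diet group, nothing is read from the members' share against these. Without the limit the same number of member calls, 12, was made over the strains. DESeq2 in place of edgeR also called Spp1 in A/J (4.10, adjusted p = 0.00357) and Cd9 in BALB/cJ (1.96, adjusted p = 0.0154). The 4 A/J calls, Trem2, Gpnmb, Cd9 and Cd63, were all lost without either untreated A/J library (adjusted p = 0.0937 to 0.287) and in a fit of the A/J libraries alone (adjusted p = 0.13 to 0.399, edgeR). In C57BL/6J, Lpl and Fabp5 were lost without either untreated C57BL/6J library (adjusted p = 0.0734 to 0.16), and the calls of the other 5 were kept in each alternative that gave a p.

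The strain comparison among diet libraries compares no untreated library, so its differences bear on the diet level alone. Its p-values rest on the spread shared with the untreated libraries. A/J was lower than C57BL/6J for 7 of 8 members (3.42% of all genes tested were lower), and BALB/cJ was lower than C57BL/6J for 7 of 8 (5.84% of all genes). The member that was not called in either comparison was Tyrobp, at -0.95 ± 0.16 and -0.90 ± 0.17 (adjusted p = 0.000586 and 0.00107, edgeR), just under the fold limit. For A/J minus C57BL/6J the called log2 differences ran from -1.47 ± 0.43 for Lpl to -3.47 ± 0.67 for Gpnmb, and for BALB/cJ minus C57BL/6J from -1.82 ± 0.61 for Cd63 to -6.51 ± 0.88 for Gpnmb. Fabp5 passed the TPM limit through C57BL/6J alone in both comparisons, and Gpnmb did so against BALB/cJ, so these could only be called lower. Between A/J and BALB/cJ, 1 of 7 members was called (4.03% of all genes), with Gpnmb, over the limit in A/J alone, 3.04 ± 0.74 higher in A/J (adjusted p = 0.02, edgeR). That call was lost without BALB/cJ replicate 1 or 3 (adjusted p = 0.0519 and 0.0961) and in a fit of these 2 groups alone (adjusted p = 0.242). A/J replicate 1, the highest A/J library, decided 2 further values: without it the A/J minus BALB/cJ differences of Trem2 and Cd63 were -1.27 and -1.25 (adjusted p = 0.00195 and 0.00852, edgeR), against -0.56 ± 0.39 and 0.10 ± 0.58 with it. Cd9 was called between A/J and BALB/cJ by DESeq2 (1.74, adjusted p = 0.00582). Trem2, Gpnmb and Cd9 kept their calls against C57BL/6J in both strains under all alternatives that gave a p, Spp1 against A/J and Lpl against BALB/cJ likewise, while those of Cd63 and Fabp5 in both comparisons, Lpl against A/J and Spp1 against BALB/cJ were lost when some single libraries on the diet were left out (adjusted p = 0.0501 to 0.113).

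Read library by library, every C57BL/6J value on the diet was above every A/J and BALB/cJ value for 6 of the 8 members, Trem2, Gpnmb, Cd9, Lpl, Fabp5 and Tyrobp, a pattern that 5.82% of 8434 genes showed. The exceptions were Spp1, through the replicate 3 library of BALB/cJ, and Cd63, through the first A/J library. Fabp5 passed the TPM limit, set on group means, through C57BL/6J alone, so a C57BL/6J range clear of the other strains could only lie above them. A C57BL/6J range clear of both other strains on either side was found for 15.7% of genes. In A/J the same libraries were high and low for nearly all members. All but Tyrobp, 7 of the 8, ran in the order replicate 1, 4, 3 and 2 from high to low, as 2.95% of genes did. That order is the one the members themselves showed, and their levels also correlate, so nothing is read from this share. The summed TPM of 6 hepatocyte markers (led by Alb, Apoa1 and Ttr) was 164 in A/J replicate 1, 2722 in replicate 2, 84.3 in replicate 3 and 2016 in replicate 4, and that of 6 LSEC markers (led by Clec4g, Stab2 and Kdr) was 133, 690, 495 and 615. The part of these other cells in the A/J spread was not tested.

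**Figure D2:**
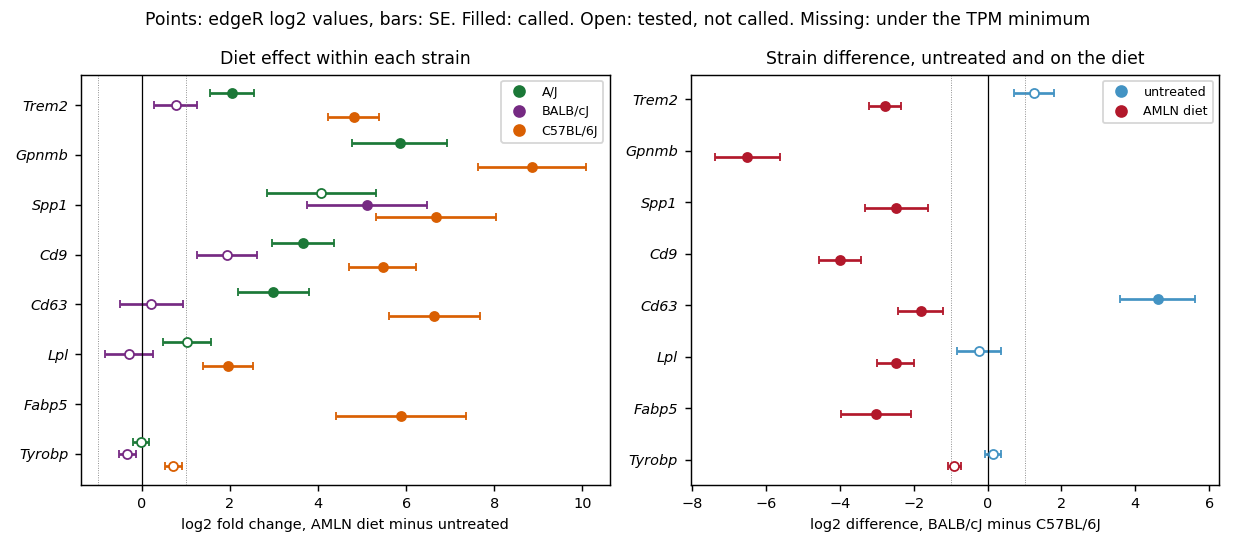
Left, edgeR log2 fold changes on the AMLN diet against untreated Kupffer cells within each strain, and right, log2 differences between BALB/cJ and C57BL/6J in untreated cells and on the diet, with bars of 1 SE. Filled symbols were called, open symbols were tested and not called, and a missing symbol marks a gene under the TPM limit. On the left the C57BL/6J point is the rightmost for every member, and on the right Cd63 is at 4.60 without the diet and at -1.82 on it.

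Whether the diet effect itself differed between strains was tested as an interaction. Between BALB/cJ and C57BL/6J the effect was smaller in BALB/cJ for 5 of 8 members (3.26% of all genes tested). Gpnmb, which was called, and Fabp5, which was not, passed the TPM limit through C57BL/6J on the diet alone. That favours a smaller effect in BALB/cJ, so the count is not read against this share. The log2 differences of the effects were -6.42 ± 1.19 for Cd63 (adjusted p = 0.00811), -5.76 ± 1.42 for Gpnmb (adjusted p = 0.0266), -4.04 ± 0.68 for Trem2 (adjusted p = 0.005), -3.53 ± 0.93 for Cd9 (adjusted p = 0.0336) and -1.05 ± 0.28 for Tyrobp (adjusted p = 0.0345, edgeR). Between A/J and C57BL/6J, 1 of 8 was called (0.875% of all genes were lower), Trem2 at -2.77 ± 0.66 (adjusted p = 0.0489), and between A/J and BALB/cJ 0 of 7 (0.247% of all genes), where 1 member, Cd63, had an unadjusted p under 0.05 (0.0176, edgeR). Lpl was called between BALB/cJ and C57BL/6J by DESeq2 (-2.24, adjusted p = 0.0237) and by edgeR on the libraries of that contrast alone (-2.25, adjusted p = 0.0171). Without A/J AMLN replicate 1, Gpnmb (-4.25, adjusted p = 0.0156) and Cd63 (-5.02, adjusted p = 0.00012, edgeR) were called between A/J and C57BL/6J as well. The A/J to C57BL/6J call for Trem2 was lost without any 1 of the other 11 of the 12 libraries and in 4 other alternatives (adjusted p = 0.0516 to 0.274). The calls between BALB/cJ and C57BL/6J leaned on the 4 untreated libraries. Cd9, Gpnmb and Tyrobp were lost without any 1 of them (adjusted p = 0.0578 to 0.269), and Trem2 and Cd63 were lost without untreated C57BL/6J replicate 1 (adjusted p = 0.0519 and 0.0777, edgeR). Cd9 was lost without AMLN C57BL/6J replicate 1, 3 or 4 and Tyrobp without AMLN C57BL/6J replicate 1 or 3 or AMLN BALB/cJ replicate 2 (adjusted p = 0.0504 to 0.0619).

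The cell markers moved with the diet as well. The summed TPM of 8 resident Kupffer cell markers (led by Cd5l, Clec4f and Vsig4) was 9874 to 13194 in C57BL/6J on the diet against 16930 and 18176 without it, 13376 to 16565 against 17062 and 17128 in A/J, and 13832 to 17619 against 17748 and 18532 in BALB/cJ, so the summed level was lower on the diet in all 3 strains. Single markers went the other way: Cd5l, a secreted scavenger receptor protein, was at 5741 to 8898 TPM on the diet against 3596 to 4263 TPM in A/J, at 5638 to 6909 against 4489 to 4800 TPM in C57BL/6J and at 4348 to 5172 against 3263 to 4195 TPM in BALB/cJ, without overlap. Its log2 differences were 0.999 ± 0.25, 0.59 ± 0.24 and 0.25 ± 0.25 (adjusted p = 0.0279, 0.0762 and 0.666, edgeR), none past the fold limit. The sum of 8 markers of recruited monocytes and macrophages was 318 to 442 against 123 and 174 in C57BL/6J, 235 to 349 against 131 and 138 in A/J, and 99.4 to 304 against 104 and 123 in BALB/cJ. In C57BL/6J 4 of the 8 resident markers fell and none rose, and 6 of 7 recruited markers tested rose, led by Itgax at 174 TPM on the diet. In A/J 6 of 7 recruited markers tested rose and in BALB/cJ 2 of 5. Apart from Plac8 in A/J, every recruited marker that rose was under the TPM limit in untreated cells of its strain. Such a marker could only be called higher, so these counts are not read against the share of all genes. Slc40a1 was the only resident marker called in A/J, at -1.25 ± 0.28 (adjusted p = 0.0174, edgeR). No resident marker was called in BALB/cJ. The LSEC sum was 84.4 to 134 in C57BL/6J on the diet and 521 to 2146 in BALB/cJ, with the highest value in the replicate 3 library of BALB/cJ, the one with the high Spp1. Hepatocyte sums in BALB/cJ were 1156 to 1889 TPM on the diet against 109 and 245 TPM, and in C57BL/6J 139 to 519 against 147 and 422 TPM. Erythroid sums were 764 to 911 TPM on the diet against 3.64 TPM in both untreated BALB/cJ libraries, but 2.29 to 10.3 against 46.1 and 47.3 TPM in C57BL/6J and 343 to 560 against 139.5 and 712 TPM in A/J. Lymphocyte sums were higher on the diet in every strain, at 16.7 to 49.2 against 4.29 and 9.59 TPM in C57BL/6J, 18.2 to 34.5 against at most 2.6 TPM in A/J and 18.1 to 25.2 against 0.68 and 0.88 TPM in BALB/cJ. The part of recruited cells and of other liver cells in the members' values was not tested.

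Other genes of the programme also rose on the diet, most of them in C57BL/6J. Of 30 further lipid-associated macrophage genes, 15 of 27 tested were higher on the diet in C57BL/6J and none lower, with a median log2 difference of 1.22 against -0.01 over all genes tested, and Lgals1 at 6.78 ± 0.91, Mmp12 at 6.74 ± 1.06, Atp6v0d2 at 6.44 ± 1.07 and Itgax at 6.10 ± 0.71 led them. Galectin 1 (Lgals1) is a secreted lectin, Mmp12 the macrophage elastase, Atp6v0d2 a subunit of the vacuolar proton pump and Itgax the CD11c integrin chain, which is also among the markers of recruited cells. In A/J 6 of 26 were higher and 1 lower (median 0.53 against -0.02), led by Fabp4 at 4.81 ± 1.13, Itgax at 3.32 ± 0.60, Capg, an actin-capping protein, at 2.01 ± 0.32 and Anxa2 at 1.68 ± 0.33, with the ferritin light chain Ftl1 lower at -1.14 ± 0.27. In BALB/cJ 3 of 26 were higher (median -0.01 against -0.10), Fabp4 at 6.58 ± 1.15, Csf1 at 3.87 ± 0.65 and Cd36 at 2.34 ± 0.57. Fabp4 and Cd36 are fatty acid handling genes that endothelial cells also express, and 5 of 6 LSEC markers were higher on the diet in BALB/cJ as in A/J, with Kdr at 7.02 ± 1.14 and 5.16 ± 1.03. Fabp4 was also higher on the diet in C57BL/6J, at 4.12 ± 1.05 (adjusted p = 0.0107, edgeR). The LSEC sum there was 84.4 to 134 TPM on the diet against 119 and 105 TPM without it. The part of endothelial cells in these values was not tested. As with the members, a gene that passed the TPM limit through the diet group alone could only be called higher.

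Lists around the receptor are given by their counts, beside the 6.73% of all genes called higher in C57BL/6J, and differences between lists were not tested. Of 16 genes of TREM2 and TYROBP signalling, among them the kinase Syk and the phospholipase Plcg2, 1 was called on the diet in C57BL/6J, Ms4a7 at 2.86 ± 0.34 (adjusted p = 6.68e-05, edgeR), and 0 of 16 in either other strain. Of the other receptors that pair with TYROBP, 2 of 5 tested rose in C57BL/6J, Treml2 at 2.78 ± 0.66 and Sirpb1a at 2.43 ± 0.41, and 0 of 3 in either other strain. Of 16 MITF and TFE factors and lysosomal targets, 2 rose in C57BL/6J, among them the lysosomal hydrolase Gla at 2.03 ± 0.31, with a list median of 0.28, and 0 of 16 in the other strains. Of 17 fatty acid and lipoprotein handling genes tested, 4 rose in C57BL/6J, among them the nuclear receptor Pparg at 1.39 ± 0.34, the lipid droplet protein Plin3 at 1.18 ± 0.20 and the sterol exporter Abcg1 at 1.12 ± 0.27. In A/J and BALB/cJ 2 of 17 rose, among them Gpihbp1, the endothelial anchor of lipoprotein lipase (5.10 ± 1.08 and 6.33 ± 1.13). None of 9 other tetraspanins and none of 6 SPP1 receptors tested was called on the diet in any strain.

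LPS for 2 h raised both tetraspanins in both strains, and Gpnmb, Spp1 and Fabp5 stayed under the TPM limit. Cd63 was at 65.8 and 45.6 TPM in BALB/cJ and at 13.0 and 21.7 TPM in C57BL/6J after LPS, against 32.8 and 32.6 TPM and 1.06 and 1.74 TPM without it. All treated libraries lay above the untreated ones of their strain, and the rise was 1.31 ± 0.28 in BALB/cJ (adjusted p = 0.00334) and 4.31 ± 0.41 in C57BL/6J (adjusted p = 1.94e-05, edgeR). Cd9 rose by 1.91 ± 0.35 and 1.75 ± 0.35 (adjusted p = 0.00134 and 0.00174). Trem2 fell in BALB/cJ, from 51.7 and 63.1 TPM to 18.1 and 15.3 TPM, a log2 change of -1.23 ± 0.20 (adjusted p = 0.000649, edgeR). In C57BL/6J it was at 23.1 and 20.4 TPM and the fitted change was 0.48 ± 0.20 (adjusted p = 0.0625, edgeR). The fitted folds use library scaling factors (TMM) that the TPM do not, so the TPM and the fold of Trem2 in C57BL/6J point in opposite directions.

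In BALB/cJ 3 of 5 members tested were called after LPS (31.8% of all genes tested), and in C57BL/6J 2 of 5 were higher (20.9% of all genes were higher), so these counts are read against a response of a large share of the transcriptome. Cd9 in both strains and Cd63 in C57BL/6J passed the TPM limit through the LPS group alone and so could only be called higher. The difference between the 2 responses was called for 2 of 5 members, both lower in BALB/cJ (0.353% of all genes), Trem2 at -1.71 ± 0.29 and Cd63 at -3.00 ± 0.51 (adjusted p = 0.0399 and 0.0402, edgeR). Both were lost without any 1 of the 4 untreated libraries (adjusted p = 0.13 to 0.194) and without BALB/cJ LPS replicate 2, and Trem2 also without replicate 1 (adjusted p = 0.0525 to 0.0888). Without the TPM limit, which adds genes to the correction, they were at 0.0564 and 0.0578. The comparisons of diet, LPS and NSG hosts share the untreated libraries. Whether these came from fasted mice is not labelled, so LPS and the overnight fast before it cannot be told apart here.

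In CB6F1/J Kupffer cells Cd63 was at 9.15, 4.51, 11.3 and 9.65 TPM without and at 47.7, 60.4, 36.0, 52.0 and 52.6 TPM after LPS, a rise of 3.42 ± 0.25 on the log2 scale (adjusted p = 3.52e-08, edgeR). Fabp5 was at 1.28, 0.506, 0.865 and 1.39 TPM without and at 11.8, 7.39, 9.90, 10.8 and 15.2 TPM after it, a rise of 4.33 ± 0.31 (adjusted p = 3.1e-08). For both genes all treated libraries were above all untreated ones. These were 2 of the 5 members tested, where 21.8% of all genes tested were higher. Fabp5 passed the TPM limit through the LPS group alone and so could only be called higher. Trem2 differed by 0.11 ± 0.25 (adjusted p = 0.692, edgeR), with TPM of 13.7 to 41.9 without and 13.1 to 23.9 after LPS.

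**Figure D3:**
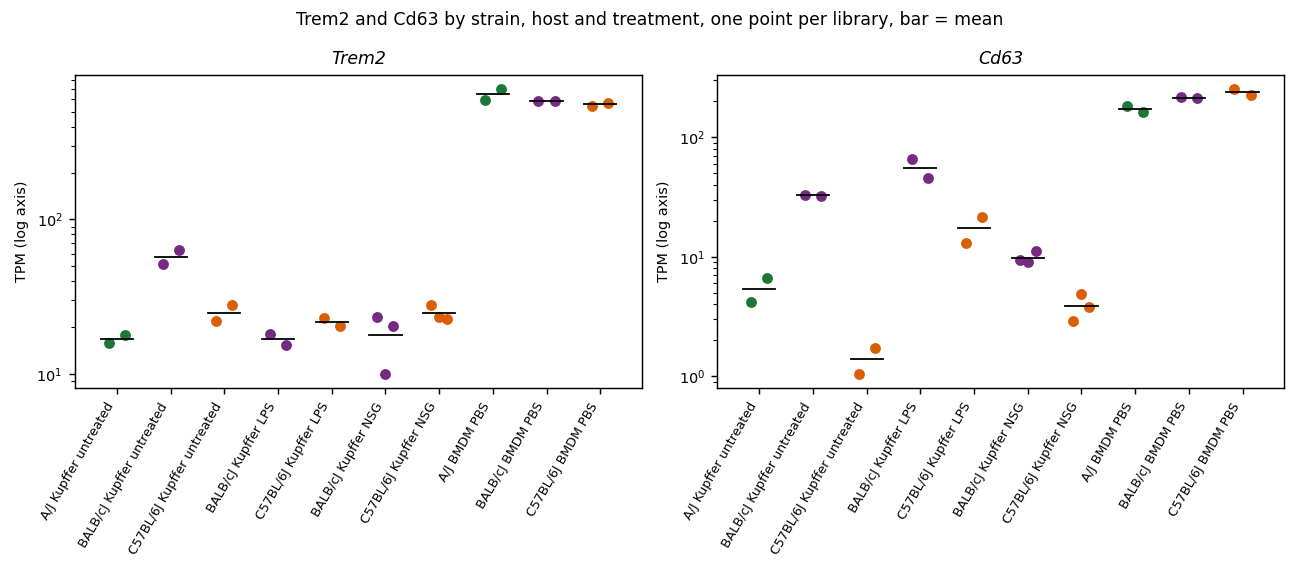
Trem2 and Cd63 in TPM on a log axis in untreated, LPS-treated and NSG-hosted Kupffer cells and in PBS-treated BMDMs, with 1 point per library and a bar at the group mean, coloured by strain. BALB/cJ is the highest strain in untreated Kupffer cells for both genes, and the 3 strains lie within 547 to 703 TPM for Trem2 and 164 to 255 TPM for Cd63 in BMDMs.

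NSG-hosted Kupffer cells compare the strains in a common host. NSG-hosted Kupffer cells had Trem2 at 23.2, 10.0 and 20.5 TPM from BALB/cJ marrow and at 28.0, 23.3 and 22.6 TPM from C57BL/6J marrow, with a difference of -0.38 ± 0.26 (adjusted p = 0.356, edgeR). Cd63 was at 9.44, 8.98 and 11.2 TPM from BALB/cJ marrow and at 2.92, 4.92 and 3.82 TPM from C57BL/6J marrow, without overlap and 1.40 ± 0.28 higher from BALB/cJ (adjusted p = 0.00265, edgeR). It was the 1 call among 7 members tested, where 3.98% of all genes tested were called. Against untreated Kupffer cells of the same strain 5 of 7 members were called in BALB/cJ (5.48% of all genes) and 3 of 6 were higher in C57BL/6J (5.69% of all genes). In both strains 3 of these calls, Gpnmb, Spp1 and Cd9, were of genes that passed the TPM limit through the NSG group alone, as Cd63 did through BALB/cJ marrow, so their direction was fixed and the shares are not read against the background.

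In both strains the NSG-hosted cells carried more Gpnmb, Spp1 and Cd9. Gpnmb was at 9.42, 13.5 and 8.58 TPM from BALB/cJ and 17.9, 14.7 and 14.4 TPM from C57BL/6J marrow, all above the untreated libraries, with log2 differences of 3.81 ± 0.42 and 3.57 ± 0.40 (adjusted p = 0.000129 and 7.1e-05, edgeR). Cd9 was 2.15 ± 0.32 and 2.16 ± 0.31 higher (adjusted p = 0.000224 and 9.28e-05). The Spp1 differences of 3.95 ± 1.08 and 3.78 ± 1.00 (adjusted p = 0.0414 and 0.0236) were lost without either untreated library of the strain (adjusted p = 0.0616 to 0.194) and in BALB/cJ also without NSG replicate 1 or 2 (0.0862 and 0.0857) or in a fit of the 2 groups alone (0.12, edgeR). In BALB/cJ Trem2 differed by -1.70 ± 0.27 and Cd63 by -1.75 ± 0.27, both lower in the NSG hosts (adjusted p = 0.00104 and 0.000308, edgeR). In C57BL/6J Trem2 differed by -0.07 ± 0.28 (adjusted p = 0.875, edgeR) and Cd63 was under the TPM limit. Markers of other cells moved as well. The recruited monocyte and macrophage sum was 221 to 341 TPM in NSG hosts against 104 and 123 TPM in BALB/cJ, and 304 to 330 against 123 and 174 TPM in C57BL/6J. The lymphocyte sum was 74.4 to 316 against 0.68 and 0.88 TPM, and 284 to 432 against 4.29 and 9.59 TPM. The part of these cells in the members' values was not tested. Host, busulfan conditioning, grafting and the marrow origin of the cells differ together between these groups and cannot be told apart. Sequencing runs are not given. CB6F1/J cells from NSG hosts, whose TPM were normalized in a separate table and were not tested, had Gpnmb at 0.875, 0.486 and 4.05 TPM and Spp1 at 1.68, 1.73 and 3.21 TPM, below the inbred NSG-hosted libraries.

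In BMDMs all 8 genes were high, at 388 to 703 TPM for Trem2, 394 to 1867 TPM for Gpnmb, 1709 to 7223 TPM for Spp1, 255 to 450 TPM for Cd9, 115 to 255 TPM for Cd63, 561 to 1266 TPM for Lpl, 67.7 to 192 TPM for Fabp5 and 634 to 1076 TPM for Tyrobp over the 12 inbred libraries. The C57BL/6J Kupffer libraries on the diet overlapped these ranges for Trem2, Gpnmb, Cd63 and Lpl and stayed below them for Spp1, Cd9 and Fabp5, and Tyrobp was higher on the diet than in any BMDM library. The 12 inbred BMDM libraries held counts that are not whole, unlike the inbred Kupffer libraries, so reads may have been counted differently. Among PBS-treated BMDMs the calls were 1 of 8 members for A/J minus BALB/cJ (4.25% of all genes tested), 2 of 8 for A/J minus C57BL/6J (5.66% of all genes) and 1 of 8 for BALB/cJ minus C57BL/6J (4.66% of all genes). Gpnmb was at 1867 and 1581 TPM in C57BL/6J, 818 and 855 TPM in A/J and 715 and 580 TPM in BALB/cJ. It was lower than in C57BL/6J in both other strains, at -1.11 ± 0.11 on the log2 scale in A/J and -1.45 ± 0.11 in BALB/cJ (adjusted p = 6.28e-07 and 3.33e-08, edgeR). Without C57BL/6J replicate 1 the A/J difference was -0.98 and so under the fold limit. The A/J libraries had Spp1 1.29 ± 0.09 above the C57BL/6J ones (adjusted p = 6.06e-09), and the A/J minus BALB/cJ difference of Fabp5 was -1.15 ± 0.12 (adjusted p = 3.86e-06, edgeR).

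KLA moved few members. The counts were 0 of 8 in A/J (12.3% of all genes tested), 0 of 8 in BALB/cJ (14.0% of all genes), 1 of 8 in C57BL/6J (17.1% of all genes) and 0 of 8 in CB6F1/J (12.3% of all genes). Spp1 went from 1709 and 1924 TPM to 3335 and 3254 TPM in C57BL/6J, a rise of 1.16 ± 0.09 (adjusted p = 4.45e-09), and the changes of 0.94 ± 0.09 for A/J, 0.56 ± 0.09 for BALB/cJ and 0.67 ± 0.09 for CB6F1/J cells (adjusted p = 1.02e-07, 4.34e-05 and 0.000784, edgeR) were under the fold limit. With an unadjusted p under 0.05 and no fold limit, Gpnmb had changes of -0.69 ± 0.11 for C57BL/6J BMDMs, -0.48 ± 0.11 for the A/J and -0.39 ± 0.11 for the BALB/cJ ones. By the same measure Cd9 was higher by 0.30 ± 0.08 for BALB/cJ, 0.35 ± 0.08 for A/J and 0.35 ± 0.08 for CB6F1/J cells, Fabp5 by 0.29 ± 0.12 in BALB/cJ and 0.34 ± 0.12 in C57BL/6J, and Cd63 was at -0.24 ± 0.11 in A/J. Fabp5 in CB6F1/J was at -0.28 ± 0.12 (unadjusted p = 0.0616, edgeR). These Cd9 and Fabp5 rises had little or no counterpart in TPM, which lack the TMM scaling. Mean Cd9 went from 267 to 265 TPM in BALB/cJ, 439 to 443 in A/J and 312 to 318 in CB6F1/J. Mean Fabp5 went from 171 to 168 TPM in BALB/cJ and 130 to 134 in C57BL/6J.

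Strain differences of Trem2 and Cd63 differed between the 2 macrophage types. Counts were whole in inbred Kupffer cells and not in BMDMs, and the part of this in the values below was not tested. Kupffer cells minus BMDMs, the strain difference was called for 2 of 8 members in A/J minus BALB/cJ (9.22% of all genes tested), 1 of 8 in A/J minus C57BL/6J (7.94% of all genes) and 2 of 8 in BALB/cJ minus C57BL/6J (7.32% of all genes). For Trem2 it was -1.96 ± 0.19 and 1.23 ± 0.18 in the first and the last (adjusted p = 2e-06 and 0.000176, edgeR), and in PBS BMDMs alone the strain differences of Trem2 were 0.12 ± 0.10 and 0.03 ± 0.10. For Cd63 it was -2.34 ± 0.20, 2.48 ± 0.32 and 4.82 ± 0.26 in order (adjusted p = 9.37e-07, 3.59e-05 and 4.78e-09, edgeR), against -0.34 ± 0.11, -0.54 ± 0.11 and -0.20 ± 0.11 in PBS BMDMs.

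**Figure D4:**
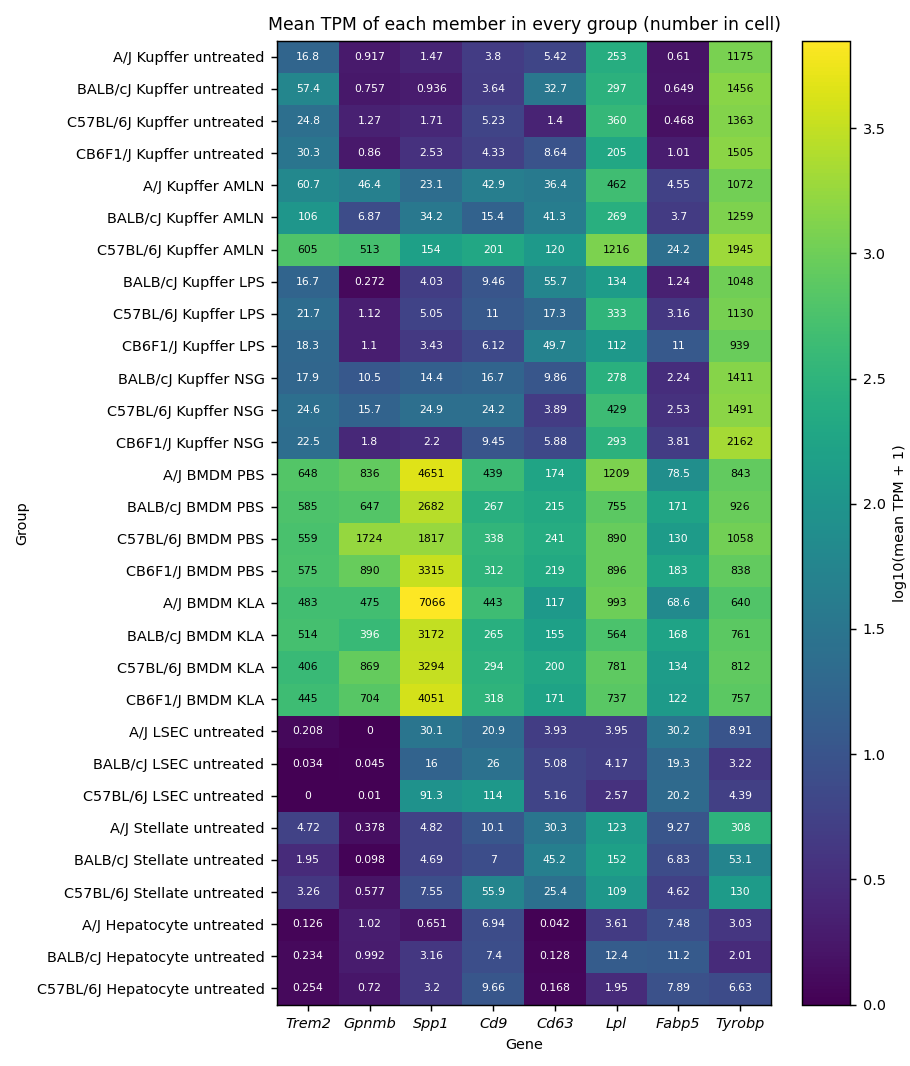
Mean TPM of the 8 genes in all 30 groups, written in each cell and coloured by log10 of the mean plus 1, with strain, cell type and treatment in rows. The BMDM rows are high for all 8 genes, and among Kupffer rows the C57BL/6J AMLN row has the highest mean for every gene but Tyrobp.

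Against the other liver cells of untreated mice, with the 3 strains averaged, Kupffer cells had more Trem2, Lpl and Tyrobp and less Cd9 and Fabp5. Relative to LSECs 6 of 7 members tested were called (38.4% of all genes tested), relative to stellate cells 6 of 6 (36.9% of all genes) and relative to hepatocytes 6 of 6 (60.5% of all genes). Cd9 and Fabp5 were under the TPM limit in all untreated Kupffer groups and so could only be called lower. Trem2 was under it in all groups of the other liver cells and so could only be called higher. The counts are therefore not read against these shares. Trem2 was 9.43 ± 0.34 above LSECs, 3.40 ± 0.21 above stellate cells and 6.08 ± 0.33 above hepatocytes (adjusted p = 3.11e-19, 4.21e-14 and 1.63e-15, edgeR). Fabp5 was lower, at -4.95 ± 0.41, -3.31 ± 0.44 and -4.98 ± 0.43, as was Cd9, at -2.91 ± 0.22, -1.71 ± 0.22 and -1.997 ± 0.23 (the highest of these adjusted p-values was 8.92e-08, edgeR). Cd9 in LSECs also differed in level by strain, at 91.2 to 136 TPM in C57BL/6J and 16.3 to 38.4 TPM in the other strains. The stellate libraries held Tyrobp at 175 to 567 TPM in A/J, 31.7 to 79.8 TPM in BALB/cJ and 112 to 143 TPM in C57BL/6J, together with resident Kupffer marker sums of 2500 to 7299, 410 to 1050 and 1681 to 2164 TPM. The part of Kupffer cells in the stellate values was not tested. Ordered by mean over the 30 groups, 22 to 24 of the 29 neighbouring pairs overlapped for each member.

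The allele of origin could be read in CB6F1/J for 4 members, from reads that span a variant between BALB/cJ and C57BL/6J and match 1 genome perfectly. Trem2, Spp1 and Cd63 had no such read in any library and Cd9 at most 0.5 (reads shared between annotations are counted in parts), so no allele share is given for them. Over all genes the median share of the BALB/cJ allele was 49.67% to 50.0% per library. For Tyrobp it was 48.1%, 48.1%, 48.6% and 49.0% in untreated Kupffer cells and 42.6% to 49.9% in the other libraries, with no group called and log2 differences of the alleles from -0.07 ± 0.02 to -0.32 ± 0.06.

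Lpl gave fewer reads from the BALB/cJ allele in every library. Its share was 39.33%, 39.28%, 39.35% and 39.91% in untreated Kupffer cells, 33.4%, 33.9%, 37.1%, 33.0% and 28.5% after LPS, 40.4%, 35.2% and 40.3% in NSG hosts, and 44.8% to 45.2% in the 4 BMDM libraries. The Kupffer libraries lay below the BMDM libraries without overlap, and the LPS libraries below the untreated ones. The allele difference was -0.59 ± 0.01 in untreated cells, -0.97 ± 0.08 after LPS, -0.66 ± 0.08 in NSG hosts and -0.27 ± 0.01 in PBS BMDMs (adjusted p = 3.09e-05, 0.000827, 0.0412 and 0.0386, edgeR with the library as a block), each under the fold limit. In parental Kupffer cells without treatment Lpl differed between BALB/cJ and C57BL/6J by -0.23 ± 0.60 (adjusted p = 0.903). Without LPS replicate 3, the library with the highest share, the LPS value was -1.04 (adjusted p = 0.0028, edgeR) and so past the limit.

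Gpnmb could be tested in BMDMs, where 34.8% to 35.5% of 44225.5 to 92075 variant reads came from the BALB/cJ allele. The allele difference was -0.87 ± 0.02 with PBS and -0.84 ± 0.02 with KLA (adjusted p = 0.0257 and 0.000772, edgeR), in the direction of the -1.45 ± 0.11 between the parental strains. In Kupffer cells Gpnmb had 12.5 to 113 variant reads a library and shares of 18.0% to 47.4%, below 50% in 12 of 12 libraries but with Wilson 95% intervals as wide as 8.89% to 53.2%. These intervals cover counting error only.

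**Figure D5:**
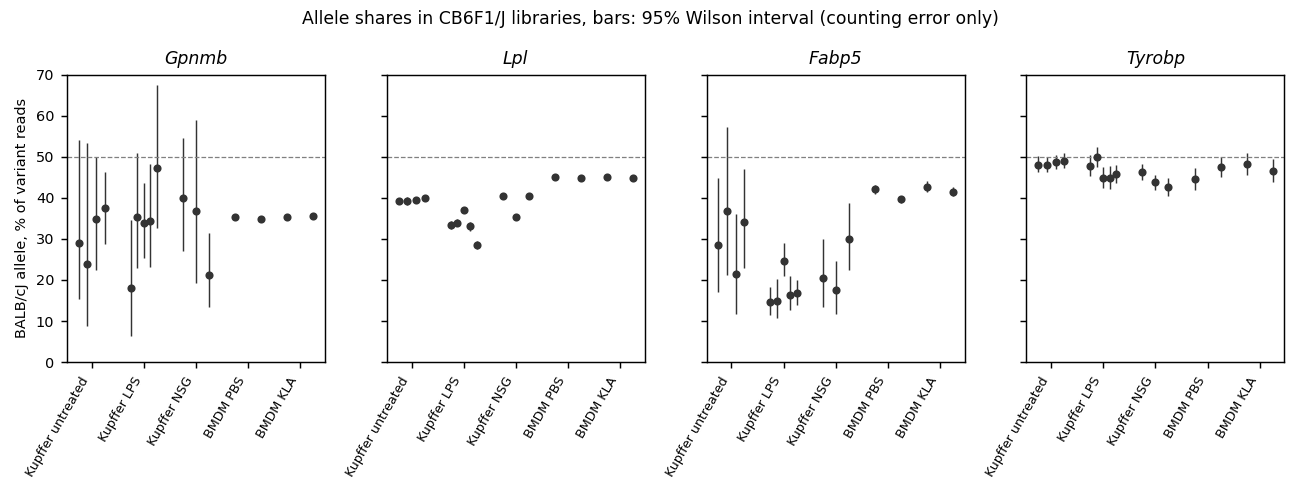
Share of the BALB/cJ allele among variant reads of Gpnmb, Lpl, Fabp5 and Tyrobp in the 16 CB6F1/J libraries, in percent, with 1 point per library, Wilson 95% intervals (counting error only) and a dashed line at 50%. Fabp5 after LPS lies between 14.7% and 24.7% and Tyrobp between 42.6% and 49.9%.

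Fabp5 had the most uneven alleles. After LPS its BALB/cJ share was 14.7%, 14.9%, 24.7%, 16.2% and 16.9% of 221.5 to 584 variant reads, an allele difference of -2.20 ± 0.17 (adjusted p = 0.000547, edgeR). In BMDMs the share was 39.6% to 42.7% (-0.52 ± 0.05 with PBS, adjusted p = 0.0644, and -0.44 ± 0.03 with KLA, adjusted p = 0.00639). In untreated and NSG-hosted Kupffer cells the shares were 21.4% to 36.7% and 17.5% to 30.0%, from 24.5 to 128.5 reads. The Kupffer libraries were below all BMDM libraries. Over the groups, 0 of 2 members tested were called in untreated Kupffer cells (3.69% of all genes tested), 1 of 3 after LPS (5.42% of all genes), 0 of 2 in NSG hosts (3.38% of all genes), 0 of 4 with PBS (2.56% of all genes) and 0 of 4 with KLA (3.96% of all genes). Fabp5 also mapped unequally: its TPM on the BALB/cJ genome was 0.687 to 0.877 times that on the C57BL/6J genome in group means, and that of Cd63 0.541 to 0.857 times, where the median gene stood at 1.001 to 1.003. The part of mapping in the Fabp5 shares was not tested.

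Over the 27 inbred Kupffer libraries the members rose and fell together to different degrees. As a description across libraries that share strains and diets, Pearson's r of log2(TPM + 1) between pairs of members ran from 0.172 (Cd63 and Tyrobp) to 0.958 (Gpnmb and Cd9), with a median of 0.698 over 28 pairs. Among 9234 genes, those most like Trem2 were Slc6a8, the creatine transporter (r = 0.968), Plin3 (0.899) and Trim29 (0.897). Those most like Gpnmb were Myo5a, an organelle motor (0.961), Cd9 (0.958) and Stra6l (0.953), and those most like Spp1 included Alcam (0.932) and Cd9 (0.916). For Cd9 they were Gpnmb, Chst11 (0.949) and Myo5a (0.943), and for Cd63 Lmna (0.898), Atp6v1b2 (0.892) and Emp1 (0.892). Lpl was nearest to LOC100038947 (0.914), Asph (0.905) and Clvs1 (0.875), Fabp5 to Cd9 (0.929), Egr2 (0.913) and Trim29 (0.874), and Tyrobp to Cyba (0.844), Qdpr (0.804) and Rnasek (0.797).

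Gene counts per library, in M (mega) reads, were 13.5 to 24.2 M in the AMLN Kupffer libraries, 9.09 to 13.4 M in the untreated ones and 5.25 to 42.8 M over all 69 inbred libraries, and 50.1 to 125 M perfect-read counts in 13 hybrid libraries. The 3 hybrid libraries from NSG hosts had 4.76 to 8.87 M variant reads. Of 88 pairs of replicates none agreed within counting noise (lowest chi-square per degree of freedom 4.24), so each library was counted as a sample. Whether libraries of a group came from separate mice is not stated for each, and where they did not, the p-values measure technical spread.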

How the data were processed

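RNA-seq libraries were aligned by the authors with STAR to pseudogenomes of each strain, and positions were shifted to mm10. Read counts per gene over exons and TPM values were deposited, both made by the authors with HOMER, without versions or strand setting in the sources used here. The deposited counts of the 12 inbred BMDM libraries and of the hybrid held values that are not whole (expected counts), and were rounded to whole numbers here; those of the hybrid were first averaged over both parental genomes or held fractions of shared reads. Here the counts were tested with edgeR 4.0.16 (R 4.3.3, quasi-likelihood test, TMM scaling, 1 fit per family of comparisons), on genes passing filterByExpr with a mean above 8 TPM in at least 1 group, with Benjamini-Hochberg adjustment over all genes tested. A call needed an adjusted p under 0.05 and a log2 change over 1 in size. Allele tests blocked by library and needed at least 10 variant reads. The scripts were tested on simulated data. Groups followed the labels, and depth set the precision of low values.

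The members and all gene lists were chosen with earlier results of these data known. Genes named besides the members were up to 4 called genes per list with the largest change, up to 3 markers per list with the highest TPM, and the 3 genes most like each member. Alternatives were RLE scaling, no TPM filter, DESeq2 1.42.0 (the tool of the study), a replicate block, the libraries of a contrast alone, the C57BL/6J genome alone for the hybrid, a minimum of 30 variant reads, and leaving out each library. The main fits did not pair samples of different groups by replicate number. Of 288 same-number pairs in 8 fits, 96 correlated over 0.1 (r from -0.572 to 0.716). These were not compared with different-number pairs, so whether numbers pair the samples was not tested. The values of some genes of the lists are not reported here.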

Additional observations from a re-analysis of the deposited data

Results flagged for a closer look

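Single LSEC libraries stood apart from the other 3 of their strain for 5 of 70 gene and group pairs tested in 9 groups, where chance gives about 1 in 20. Spp1 was at 85.5 TPM in A/J replicate 3, with the next library at 18.4 TPM. Lpl was at 9.71 TPM in BALB/cJ replicate 1, with the next at 2.76 TPM, and Tyrobp was at 12.2 TPM in C57BL/6J replicate 1, with the next at 2.34 TPM. Trem2 at 0.136 TPM in BALB/cJ replicate 2 and Gpnmb at 0.038 TPM in C57BL/6J replicate 3 rested on 1 read each, and the other 3 libraries of each group were listed at 0.

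A difference between strains in an effect passed its own test in 13 cases. For the diet these were Trem2 between A/J and C57BL/6J (-2.77, adjusted p = 0.0489) and, between BALB/cJ and C57BL/6J, Trem2 (-4.04, 0.005), Gpnmb (-5.76, 0.0266), Cd9 (-3.53, 0.0336), Cd63 (-6.42, 0.00811) and Tyrobp (-1.05, 0.0345), by edgeR's quasi-likelihood test. For LPS they were Trem2 (-1.71, 0.0399) and Cd63 (-3.00, 0.0402) between BALB/cJ and C57BL/6J. Between Kupffer cells and BMDMs they were Trem2 (-1.96, 2e-06) and Cd63 (-2.34, 9.37e-07) for A/J minus BALB/cJ, Cd63 (2.48, 3.59e-05) for A/J minus C57BL/6J, and Trem2 (1.23, 0.000176) and Cd63 (4.82, 4.78e-09) for BALB/cJ minus C57BL/6J. The libraries on which the diet and LPS calls rest are given with those results.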

How the results depend on the processing

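Over all values, 1639 kept their direction and side of the threshold, 120 lost a call, 27 gained one and 3 turned direction. In fits of the libraries of each contrast alone, 7 in place of 12 member calls remained for the diet and 4 in place of 1 for untreated strains. With DESeq2 the untreated strains also gave 1, but for Trem2 between A/J and BALB/cJ (adjusted p = 0.0199), since Cd63 had no p there; 11 member values had none. Without the TPM filter the hybrid treatments gave 4 in place of 2 calls and the alleles 2 in place of 1. With the replicate block the interaction gave 3 in place of 6 calls, the diet 10, the strains on the diet 14, LPS 7 and NSG hosts 7, and the alleles gave 1 with no replicate block. The cause was not tested.

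Leaving out 1 library at a time gave 8 to 13 calls for the diet, 9 to 17 for strains on the diet, 0 to 8 for the interaction, 0 to 1 for untreated strains, 3 to 4 for PBS BMDMs, 1 for KLA, 5 to 8 for LPS, 8 to 9 for NSG hosts, 18 for other liver cells, 5 to 7 for Kupffer cells against BMDMs, 2 for the hybrid treatments and 1 to 2 for alleles. The A/J minus BALB/cJ difference on the diet turned for Cd63, from 0.10 to -0.18 with the replicate block and -1.25 without A/J replicate 1 (range -1.25 to 0.43 over single libraries), and for Spp1, from -0.35 to 1.86 without BALB/cJ replicate 3 (range -0.85 to 1.86). Kupffer against stellate cells without A/J, an alternative chosen after seeing the data, kept the calls of the 5 members it could test. Depth limits the members with few untreated reads, Fabp5, Gpnmb, Spp1 and, in C57BL/6J, Cd63.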
